A study of Homo sapiens with 2 samples.

Results

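NCL and HSP90AA1 are the messenger RNAs that carried the highest peaks in a spyCLIP-seq experiment on PQBP1. NCL encodes nucleolin, an abundant nucleolar RNA-binding protein that takes part in the synthesis and maturation of ribosomal RNA. HSP90AA1 encodes the stress-inducible cytosolic form of the chaperone HSP90, which folds and stabilizes many signalling proteins. Every row of the deposited peak list that names 1 of these 2 genes was taken, which gave 8 peaks (3 for NCL and 5 for HSP90AA1) of 1489 in all, 1338 of which were given to mRNA and lay on 629 genes. The genes were chosen by their read values in this same list, so their levels and ranks below are a description and carry no test.

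PQBP1 is a nuclear protein of the spliceosome, the machine that removes introns from the primary transcript. SpyCLIP-seq marks the RNA that a tagged protein touches: ultraviolet light links protein to RNA in the living cell, the RNA is cut short with RNase, the protein is recovered, and the attached fragments are sequenced. Both libraries came from HEY cells, a human ovarian cancer cell line, that overexpressed PQBP1 with FLAG and Spy tags, received 400 mJ/cm2 of ultraviolet light and had their nuclei isolated. The Input group (1 library) had no antibody step, and the IP group (1 library) was the FLAG pull-down. The peaks are those of the IP library, and Input values were not analysed here. With 1 library there is no replicate error, the protein came from a construct rather than from its own gene, and the level of each gene's RNA was not analysed here, so a well-bound RNA and an abundant RNA cannot be told apart. Of 14 marker genes of ovarian, epithelial and mesenchymal cells, 5 had a peak (KRT7, KRT8, VIM, ZEB1 and FN1), against 3.12% of all coding genes. The ovarian markers PAX8, WT1, MUC16 and MSLN had 0 peaks, as did KRT18, KRT19, EPCAM, CDH1 and CDH2. The lack of a peak says nothing about expression.

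The read value of a peak is the mean number of reads per bin of 200 nt, and the total is that value times the number of bins. Over the 1338 peaks on mRNA the middle value was 11 reads per bin, with quartiles of 8.54 and 14, a lowest value of 6 and 22483 reads in all. Intervals below are exact Poisson or exact binomial 95% intervals. They cover counting error only, because no use of molecular identifiers is stated and reads may be copies of the same molecule. Positions are those of the list, 1-based. They are not positions of GRCh38: 0 of the 8 peaks, and 159 of 1447 peaks outside intergenic space (11.0%), overlapped the span of their own gene on that build. The exon that a peak covers was therefore not determined.

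Both genes lie on the minus strand, so their peaks are described from the 5′ end of the gene downwards. NCL (gene 4691, transcript NM_005381.2) had its first peak in an intron, on chromosome 2 from 232327801 to 232328000. This peak was 1 bin wide and held 10 reads (4.80 to 18.4), with a p-value of 5.82e-06 from the authors' peak caller. The second peak, from 232326201 to 232326800, was classed as exon, was 3 bins wide and held 154 reads (130.6 to 180.3), or 51.3 reads per bin (43.5 to 60.1). The third, from 232325201 to 232325600, was also classed as exon, was 2 bins wide and held 165 reads (140.8 to 192.2), or 82.5 reads per bin (70.4 to 96.1). Both exon peaks had a p-value of 5.19e-12, the smallest in the list, which 40 peaks on mRNA shared. The third peak exceeded the second by 1.61 times per bin (1.28 to 2.02). This interval excludes equality, but it takes each read as a separate molecule and would be wider if reads are copies. The 3 peaks lay within 2800 nt, with gaps of 1000 and 600 nt between them.

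HSP90AA1 (gene 3320, transcript NM_005348.3) had 5 peaks on chromosome 14, all classed as exon, within 3800 nt. From the 5′ end, the first peak (102552001 to 102552200) held 12 reads (6.20 to 21.0) and the second (102551601 to 102551800) 14 reads (7.65 to 23.5), each in 1 bin. The third (102551001 to 102551400) was 2 bins wide and held 400 reads (361.8 to 441.2), or 200 reads per bin (180.9 to 220.6). Further down, the fourth peak (102549801 to 102550000) held 21 reads (13 to 32.1) and the fifth (102548401 to 102548600) 13 reads (6.92 to 22.2), again in 1 bin each. The gene was thus a single tall peak among 4 low ones. The tall peak was 9.52 times the next highest per bin (6.15 to 15.6) and 13.3 times the other 4 pooled (10.1 to 17.8). Among those 4, the highest and the lowest differed by a ratio of 1.75 whose interval (0.822 to 3.90) includes equality. The tall HSP90AA1 peak was 2.42 times the tallest NCL peak per bin (2.02 to 2.92).

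**Figure D1:**
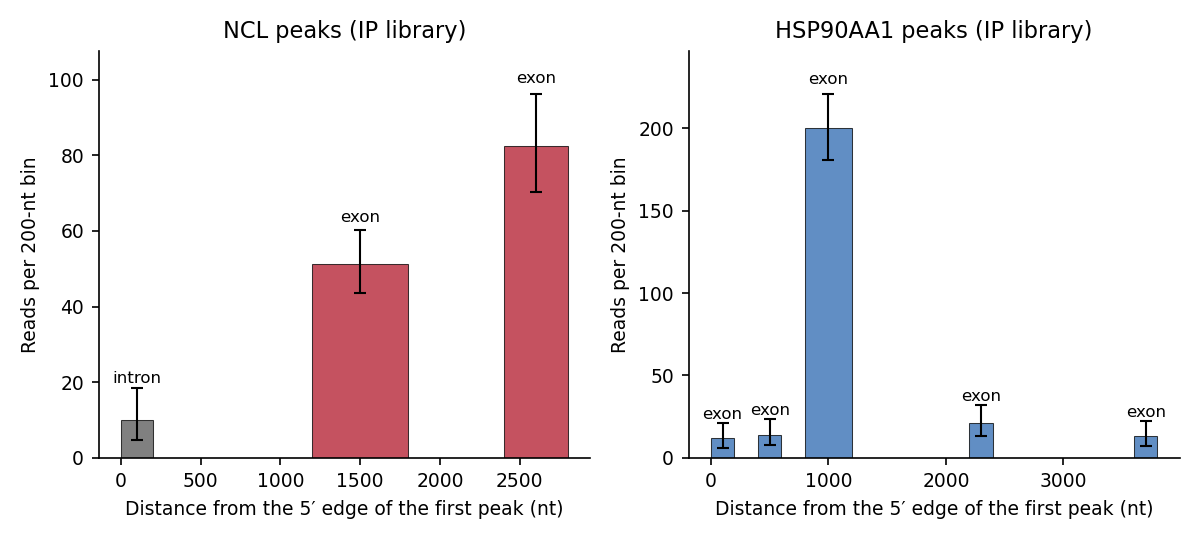
Reads per 200-nt bin of each NCL peak (left) and HSP90AA1 peak (right) against the distance in nt from the 5′ edge of the first peak; a bar is as wide as its peak, error bars are exact Poisson 95% intervals, the word above each bar is the region class, and the panels differ in scale. NCL has a low intron peak of 10 and exon peaks of 51.3 and 82.5, whereas HSP90AA1 has 1 peak of 200 among 4 of 12 to 21.

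Ranked by reads per bin, the HSP90AA1 peak of 200 stood at rank 1 of 1338 and the NCL peaks of 82.5 and 51.3 at ranks 2 and 7. The peaks between them were those of HSP90B1 (70), RBM39 (53), HSP90AB1 (52.5) and LUC7L3 (52.5), and the next below were peaks of 45 in AGRN and DONSON. Peaks with at least 50 reads per bin, a limit set after the values were seen, made up 3 of the 8 peaks of the pair and 0.523% of all peaks on mRNA (7 of 1338). The rule that chose the genes used this measure, so nothing is read from that count. The other members stood lower. The HSP90AA1 peaks of 21, 14, 13 and 12 stood at ranks 76, 300, 376 and 468, and the NCL intron peak of 10 at rank 690, a value that 199 peaks shared. Of the 8 peaks, 3 were 2 or more bins wide, against 13.8% of all peaks on mRNA, and 7 were classed as exon, against 61.8%. The 3 wide peaks were the 3 tall ones.

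**Figure D2:**
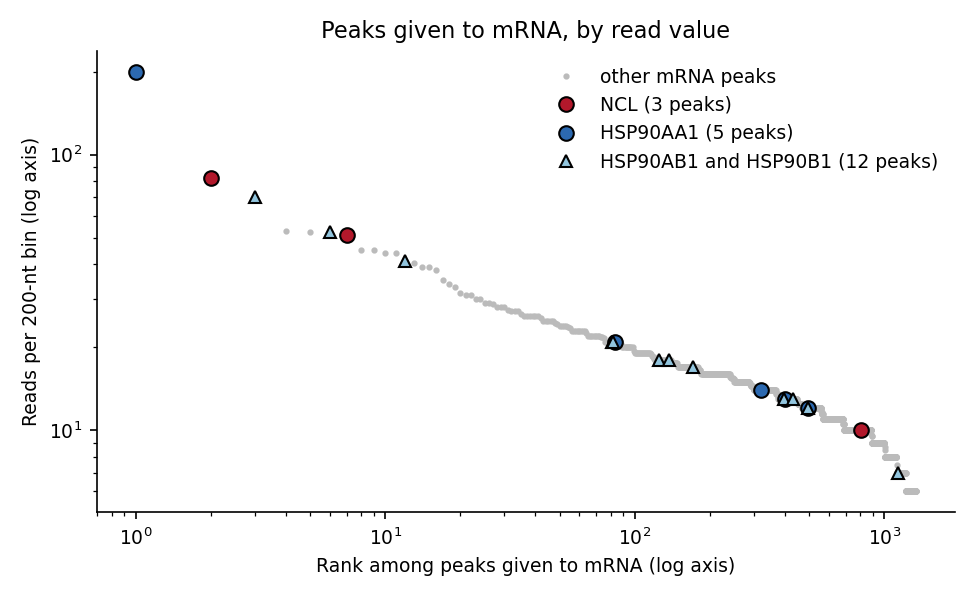
Reads per 200-nt bin of all 1338 peaks given to mRNA against their rank, both on log axes, with NCL, HSP90AA1 and the related HSP90 genes marked; tied peaks are drawn side by side. HSP90AA1 and NCL hold ranks 1 and 2, and the other HSP90AA1 peaks and the NCL intron peak lie within the body of the list.

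The p-value of the peak caller ordered the peaks of HSP90AA1 in another way. Its tallest peak had a p-value of 6.13e-04, and 734 peaks on mRNA had a smaller one. The peak of 21 reads had 8.95e-11, with 89 smaller, and the peaks of 14, 12 and 13 reads had 1.24e-06, 1.59e-05 and 2.77e-05. The tallest HSP90AA1 peak thus had the largest p-value of the 5. At a limit of 1e-05 the gene kept 2 of its 5 peaks and 35 of its 460 reads, while NCL kept all 3 of its peaks. The 2-bin peak of HSP90AB1 also had a large p-value for its height (1.76e-04 at 52.5 reads per bin), but the 2-bin NCL peak did not. The reason was not tested.

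Summed over peaks, HSP90AA1 had 460 reads (418.9 to 504.0) and NCL 329 (294.4 to 366.5). Together they held 3.51% of the reads in peaks on mRNA (3.27 to 3.76) in 0.598% of the peaks. The median gene had 12 reads in 1 peak. By total reads HSP90AA1 stood at rank 6 of 629 genes. Directly above it were the proliferation antigen MKI67 (489 reads), the scaffold protein AHNAK (527) and the microtubule-associated MAP1B (586). Directly below were the fatty acid synthase FASN (407), the laminin chain LAMA5 (367) and the proteoglycan AGRN (329). NCL shared rank 9 with AGRN, followed by the actin cross-linker FLNA (311), the translation elongation factor EEF1A1 (288) and the collagen chain COL1A1 (245). The total of MKI67 lies within the interval of HSP90AA1, and those of AGRN and FLNA within that of NCL, so these neighbours do not differ beyond counting error. The neighbours' own counting error was left out, so totals outside these intervals are not thereby shown to differ.

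The neighbours spread their reads over more bins, from 17 in COL1A1 to 35 in AHNAK apart from EEF1A1 with 10, whereas NCL and HSP90AA1 each covered 1200 nt in 6 bins. Most did so in many peaks, such as AHNAK with 21 and LAMA5 with 23. EEF1A1 had all its reads in 1 wide peak of 28.8 reads per bin, and MAP1B had 62.3% of its reads in the top one of its 8 peaks, so a single leading peak was not limited to the pair. Their mean values over covered bins, 76.7 reads per bin in HSP90AA1 (69.8 to 84.0) and 54.8 in NCL (49.1 to 61.1), were ranks 1 and 2 of the 629 genes. All reads of a gene, those of intron peaks included, were also divided by the kb of exons in its canonical transcript. By this measure HSP90AA1 had 142.5 reads per kb (rank 1 of 625 genes with a gene model, median 3.66). NCL had 83.8 reads per kb and stood at rank 7. Between them were the intermediate filament VIM (109.6), the matrix protein CYR61 (107.6), the splicing factor SRRM2 (101.7), actin ACTB (89.4) and the ribosomal protein RPL19 (86.8). CYR61, SRRM2, ACTB and RPL19 had intron peaks of up to 21.8, 26, 23.7 and 14 reads per bin. The order by exon reads alone may therefore differ and was not computed.

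How far a gene's reads gathered in 1 peak was not part of the rule. HSP90AA1 had 87.0% of its reads in its tallest peak, the highest share among the 132 mRNA genes with 3 or more peaks (median 37.6%, quartiles 26.6 and 46.8). NCL had 50.2%, at rank 24, with a further 46.8% in its other exon peak and 3.04% in its intron peak. When the top peak of every gene was left out, HSP90AA1 fell to 60 reads and rank 44, while NCL still had 164 reads and rank 12. The share is bound to the height that chose the genes and is likewise a description.

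**Figure D3:**
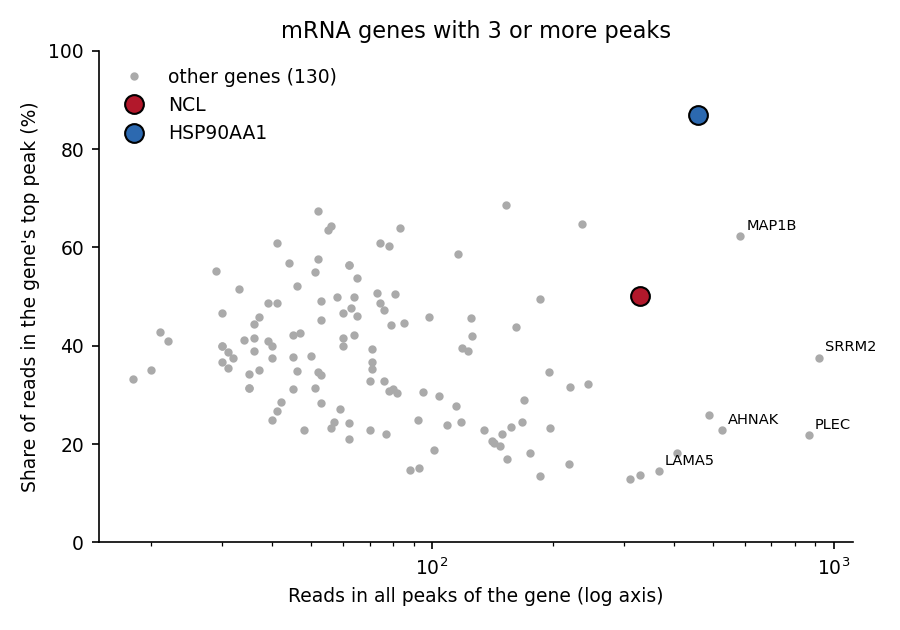
Share of a gene's reads in its top peak (%) against the gene's total reads in peaks (log axis) for the 132 mRNA genes with 3 or more peaks; each point is a gene. HSP90AA1 lies highest at 87.0% and NCL at 50.2%, while AHNAK (527 reads) and LAMA5 (367 reads) have shares of 22.8% and 14.4%.

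NCL is a host of small nucleolar RNAs (snoRNAs), short RNAs that are cut out of introns after splicing and guide chemical modification of ribosomal and small nuclear RNA. On GRCh38 the canonical NCL transcript (14 exons, 13 introns) holds 3 of them on its own strand. SNORD82 lies in intron 5 (chromosome 2, 231460371 to 231460440), SNORD20 in intron 11 (231456444 to 231456523) and SNORA75 in intron 12 (231455800 to 231455936). HSP90AA1 holds 0. The mature sequences, from the GENCODE release 44 transcripts, are shown because they are what sets the introns of this gene apart from those of most genes. Capitals mark a C box (TGATGA) and D box (CTGA) of the C/D type, and the ACA box of SNORA75, which ends 3 bases before the 3′ end.
SNORD82: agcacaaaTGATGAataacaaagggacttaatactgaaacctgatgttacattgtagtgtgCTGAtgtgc
SNORD20: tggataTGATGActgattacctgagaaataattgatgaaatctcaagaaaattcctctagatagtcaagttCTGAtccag
SNORA75: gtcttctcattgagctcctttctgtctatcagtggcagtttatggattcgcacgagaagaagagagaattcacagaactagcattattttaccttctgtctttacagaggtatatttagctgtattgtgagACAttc

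None of the 3 snoRNAs was named in the list (0 rows each), and 0 rows of another gene lay between the outer NCL peaks. This says only that no called peak carried these names. Peaks on mRNA begin at 6 reads per bin, and the lowest value of other RNA types was not computed. The introns that hold them are short, with 184, 494 and 385 nt, so a bin of 200 nt can hold part of such an intron together with an exon. Whether any NCL peak covers a snoRNA was not determined.

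The intron peak of NCL was lower than both exon peaks. It held 10 reads in its bin against 63.8 per bin over the 5 exon bins, a ratio of 6.38 (3.42 to 13.4). Taken singly, the exon peaks exceeded it by 5.13 times (2.72 to 10.9) and 8.25 times (4.37 to 17.5). On the log2 scale the exon mean was 6.02 (SD 0.48, 2 peaks) and the intron value 3.32, a difference of 2.70, or 6.51-fold. There was a single intron peak, so no spread among intron peaks could be given, and peaks of a gene in 1 library are not replicates. Peaks on mRNA begin at 6 reads per bin, so the ratio compares called peaks only and does not describe NCL introns without a peak. The NCL intron peak was at the usual level of its class. For the 389 intron peaks on mRNA the median was 9, the quartiles were 7 and 12 and the highest value was 44, and the NCL peak stood at rank 130 among them. Its exon peaks were ranks 2 and 7 of 827.

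The same difference was computed for the 116 mRNA genes with both classes of peak. Exon peaks were the higher in 80 genes, intron peaks in 33, and 3 were equal, with a median difference of 0.33 (quartiles -0.04 and 0.63). NCL had the largest difference of the 116. TPM1, which encodes the actin-binding protein tropomyosin, followed with 2.17. At the other end stood HSP90B1 with -1.19, the smallest of the 116, where the mean over 7 exon peaks was 4.17 and the single intron peak 5.36 on the log2 scale. Since the NCL exon peaks chose the gene, its place at the top follows in part from the choice. Among the 34 genes with at least 2 peaks of each class, PQBP1 itself, the gene overexpressed here, had the largest difference (1.36), then LENG8 (0.84) and the laminin chain LAMB3 (0.79). The polyadenylation factor CPSF1 (-0.30), EPS8L2 (-0.34) and COL1A1 (-0.40) had the smallest, with intron peaks the higher ones. Reads of the PQBP1 construct were not separated from those of the PQBP1 gene, so its value may not be comparable with the others.

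**Figure D4:**
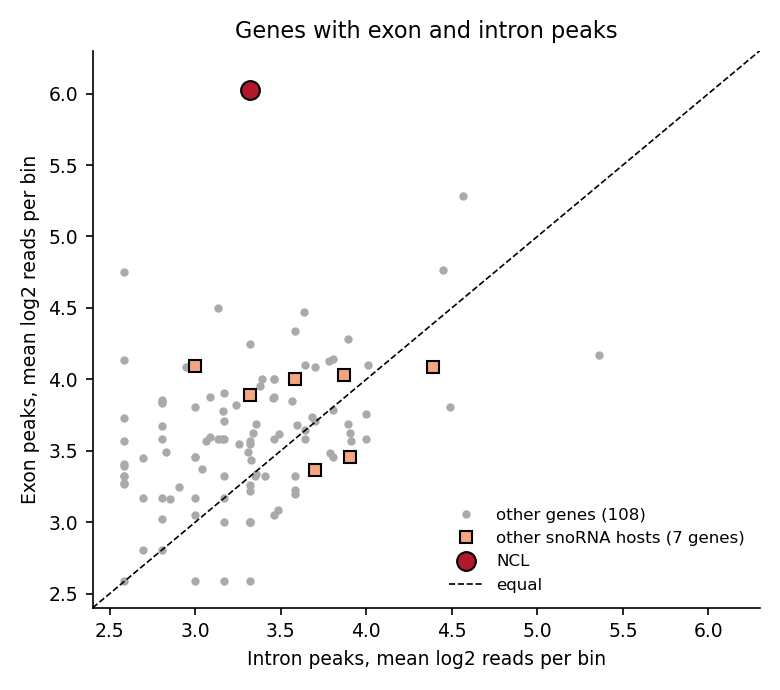
Mean log2 reads per bin of exon peaks against that of intron peaks for the 116 mRNA genes with both; a point is a gene, the dashed line is equality, and squares are other genes that hold a snoRNA. NCL lies at 3.32 on the intron axis, amid the other genes, and at 6.02 on the exon axis, above all of them.

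In the other snoRNA hosts exon peaks were not this far above intron peaks. By the GRCh38 annotation, 44 mRNA genes of the list held a snoRNA on their strand. This set of hosts includes NCL and was drawn up after the values were seen. Reads per bin had a median of 12 in its 53 exon peaks, with quartiles of 10 and 17, and of 13 in its 21 intron peaks, with quartiles of 10 and 15. The 581 genes without one had medians of 11 in 772 exon peaks and 9 in 365 intron peaks. The intron peaks of hosts thus had the higher median of the intron classes, and the NCL intron peak (10) lay at their lower quartile. The highest intron peak on mRNA, at 44 reads per bin, was in the host IPO7, an importin of nuclear transport. Of 8 hosts with both classes of peak, NCL included, 5 had higher exon peaks and 3 higher intron peaks. EEF2, a translation elongation factor, came after NCL with a log2 difference of 1.09, then RPL5 (0.57), RPL10 (0.42) and EIF4G1 (0.16), while CHD3 (-0.30), EIF3A (-0.34) and TPT1 (-0.45) ran the other way. In a written list of 51 known hosts, 26 (51.0%) had a peak on mRNA, against 3.12% of all coding genes (625 of 20033), which include genes that these cells may not express. NCL had the most reads, then PRKDC (88), EEF2 (76) and RPL4 (70). PRKDC was on the written list but not among the hosts by the annotation, so the sets of hosts differ. Its log2 difference of exon minus intron was -0.36.

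Apart from NCL, the nucleolar genes with a peak had totals near or below the median. Of 36 genes of nucleolar proteins and ribosome assembly, 6 (16.7%) had a peak, against 3.12% of coding genes. NCL held 329 of their 376 reads. The remaining genes had a single peak each: NOP56 and NOP58, core proteins of C/D snoRNA particles, with 11 and 10 reads, the rRNA methyltransferase NOP2 with 10, MYBBP1A with 10, and nucleophosmin (NPM1) with 6 reads in an intron. These totals are below the median of 12 reads per mRNA gene. A single peak was also what 409 of the 629 mRNA genes had, and the median peak held 11 reads. Totals of 10 or 11 are thus ordinary values of the list.

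Reads of the chaperone genes lay mostly in the HSP90 genes. Of 32 genes of HSP90 and HSP70 chaperones and HSP90 cochaperones, 9 (28.1%) had a peak, against 3.12% of coding genes. They had 34 peaks and 1108 reads, 460 of them in HSP90AA1, which was chosen by its read values. The median gene of the 9, HSP90AA1 included, had 71 reads against 12 for all mRNA genes. The list was written with earlier results of these data known, so this is a description. The 3 highest totals were those of HSP90 genes. HSP90B1, the form of the endoplasmic reticulum, had 221 reads in 8 peaks, and HSP90AB1, the constitutive cytosolic form, had 153 in 4. HSF1, the transcription factor that induces heat shock genes, had 109 reads in 8 peaks, 6 of them in introns, and none above 19 reads per bin. The kinase cochaperone CDC37 had 71 reads, the reticulum chaperone HSPA5 68, and HSPA8, the constitutive HSP70, 10. STIP1 had 10 and HSPA4 6, and 23 listed genes had no peak. The mitochondrial form TRAP1 had 0 peaks.

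The 4 HSP90AB1 peaks, all exonic, were also 1 tall peak among lower ones. The tall peak had 52.5 reads per bin in 2 bins (42.9 to 63.6), and the other 3 held 13, 18 and 17 reads in 1 bin each. It stood less far above the next (52.5 against 18 reads per bin) than that of HSP90AA1 (200 against 21). In HSP90B1 the top peak of 70 reads (54.6 to 88.4) was in an exon, the next of 41 (29.4 to 55.6) in an intron, and the remaining 6, all in exons, had 7 to 21 per bin. Thus each of these 3 HSP90 genes had 1 peak at rank 5 or above on mRNA, where HSP90AB1 shared rank 5 with LUC7L3. HSP90AB1 and HSP90B1 were not chosen by the rule, but they were named after the values were known, and no test was made.

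Reads of near-identical copies can be assigned to the wrong gene. The coding sequence of HSP90AA1 was cut into 2166 overlapping words of 31 nt, and 1257 of them (58.0%) also occurred in the transcript of another gene. All those genes were its processed pseudogenes, HSP90AA2P with 41.7% of the words, HSP90AA4P with 12.7%, HSP90AA3P with 11.0%, HSP90AA6P with 5.22% and HSP90AA5P with 4.94%. None of these had a row in the list. The treatment of reads that map to several places is not stated, so HSP90AA1 reads may be undercounted or may include reads of its copies. HSP90AA1 shared no word of this length with HSP90AB1 or HSP90B1. The longest run common to HSP90AA1 and HSP90AB1 is 23 nt (positions 120 to 142 and 141 to 163 of the canonical transcripts), shown because it is the longest stretch of either mRNA that would match the other without a mismatch, and HSP90B1 shares at most 23 nt as well.
HSP90AA1 and HSP90AB1: gcctttcaggcagaaattgccca

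For NCL, 70 of 2100 words (3.33%) recurred, 60 in the pseudogene NCLP1 and 10 in NCLP2, and neither had a row in the list. Less of the NCL coding sequence than of that of HSP90AA1 was thus open to this uncertainty.

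The coding sequences of both genes are rich in purines (A and G), a property that was looked at after the peaks were known. Purines made up 64.6% of the NCL coding sequence and 58.9% of that of HSP90AA1, against a median of 53.1% over the 625 mRNA genes of the list with a model (quartiles 50.8 and 55.8) and 52.0% over 20033 coding genes. In the list 14 genes were above NCL and 66 above HSP90AA1. Of the other genes with a peak of at least 50 reads per bin, LUC7L3 had 66.5%, HSP90B1 58.6%, RBM39 57.7% and HSP90AB1 55.9%, all of them above the upper quartile. These 6 genes are few and were picked by height, so this is a description.

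The richest window of 60 nt in HSP90AA1 lay in exon 5 of the canonical transcript (positions 765 to 824, 93.3% purine). The median over genes of the list was 75% for such a window, and that of HSP90AA1 stood at rank 23 of 625. In the HSP90 proteins this stretch encodes part of the charged linker between domains. The windows are shown so that the base composition of the 3 HSP90 genes can be compared directly. Capitals mark in-frame GAA and GAG codons, which encode glutamate, and there are 11 in HSP90AA1 and HSP90B1 and 10 in HSP90AB1, of 20 codons. The HSP90AB1 window lies in exon 6 (777 to 836) and that of HSP90B1 in exon 7 (1004 to 1063). Their purine shares were 90% (rank 46) and 85% (rank 100). The richest NCL window, in exon 4, had 86.7% (rank 83), so many other genes of the list have richer windows than these.
HSP90AA1: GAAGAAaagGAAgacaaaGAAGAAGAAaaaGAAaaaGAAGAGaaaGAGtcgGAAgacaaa
HSP90AB1: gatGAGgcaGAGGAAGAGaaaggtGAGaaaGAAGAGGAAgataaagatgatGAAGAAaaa
HSP90B1: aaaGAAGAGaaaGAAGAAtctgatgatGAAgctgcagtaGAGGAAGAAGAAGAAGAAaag

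Whether the tall HSP90 peaks lie on these windows was not determined, since the list could not be placed on an annotated build. Lengths, which do not depend on the build, give a bound. The inner exons of HSP90AA1 are at most 367 nt long (exon 3), so its peak of 400 nt is wider than any of them. The last exon is 1080 nt, but exon-class peaks of the gene reached 3000 nt downstream of the 5′ edge of that peak, farther than this exon would extend, and the first exon is 59 nt. In NCL the longest inner exon is 478 nt (exon 3) and the last exon 1737 nt, so the peak of 600 nt is wider than any inner exon. In this model the HSP90AA1 peak thus spans more than 1 annotated segment, or its reads fill part of the interval. The last NCL exon is long enough for the NCL peak, but length is not the only information. Of the 3924 exonic nt of this NCL model 2130 are coding, so much of the last exon is 3′ untranslated region. The list has a separate class for that region, and 0 NCL peaks were in it. The model may also differ from the transcript named in the list.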

How the data were processed

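One library of Input and 1 of FLAG pull-down (IP) were made from HEY cells, grouped by their titles, and the deposited table holds the IP peaks. Per the study's methods, the authors trimmed reads, removed ribosomal RNA, aligned with TopHat (TopHat2 2.0.13 in the submitters' processing notes) to a genome named as hg38, which the deposited positions do not match, used Piranha to find peaks and HOMER to annotate these. The authors deposited a read value per peak, read here as a coverage signal (mean reads per bin of 200 nt, not scaled to depth), since the value times the number of bins was whole within 0.002 in all 1489 peaks. They also deposited a p-value per peak, whose adjustment and use of Input are not stated. Total depth is unknown, and 39952 reads lay in peaks.

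Ranks, ratios and intervals at the 95% level were computed in Python 3.11.15 with pandas 2.3.3 and scipy 1.17.1. The steps were tested on simulated data. No test was made, as there is 1 library and the genes were chosen by their read values. Gene models, snoRNAs and transcripts came from GENCODE release 44 by name only (625 of 629 mRNA genes), and 717 gene identifiers matched RefSeq. Named genes were the pair with every peak, the 3 genes next above and below by total reads, the 3 with the largest and smallest exon minus intron difference among genes with 2 peaks of each class, the 4 of each list with most reads, and the NCL snoRNAs. Others named were chosen after their values were seen. Members and gene lists were chosen with earlier results of these data known. Alternatives were p-value limits, a minimum of 10 reads per bin, joining of near peaks, other ranked measures, RNA types, and ways to sum peaks.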

Additional observations from a re-analysis of the deposited data

How the results depend on the processing

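NCL kept 329 reads, 3 peaks and its direction of exon against intron under each setting that was run. Its log2 difference stayed at 2.70 with the median, the p-value limit of 0.001, the read minimum and UTR classes added. It was 2.67 with pooled reads, 2.36 without the highest exon peak and, by a setting chosen after seeing the data, 1.82 with the intron peak at its upper Poisson bound. It remained the largest difference in 4 settings also chosen after seeing the data. The genes compared, 116 in the main setting, fell to 70 with the read minimum and 67 with the p-value limit of 0.001. Without each gene's highest exon peak they were 77. Peaks of 1 bin alone left no NCL exon peak, so that setting was not run.

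HSP90AA1 fell to 35 reads and 2 peaks at a p-value limit of 1e-05, which removes its tallest peak, and to 3 peaks when peaks up to 200 nt apart were joined. Ranks followed the measure. NCL was at rank 2 by highest and by mean reads per bin, 88 by number of peaks and 19 over all RNA types. HSP90AA1 was at rank 1 by both per-bin measures, 45 by number of peaks, 14 over all RNA types and 44 without the highest peak of every gene, chosen after seeing the data. The share of mRNA reads held by the pair was 1.97% over all RNA types, 4.87% at a p-value limit of 0.001 and 2.08% without each gene's highest peak. No paired analysis was possible because Input and IP were 1 library each. Peaks of 10 to 21 reads have wide intervals, and no second IP library checks any peak.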
